A study of Canis lupus familiaris with 13 samples.

Results

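The CXCR3 axis consists of a receptor, CXCR3, and the interferon-induced chemokines that bind it. The symbols CXCL9, CXCL10, CXCL11, and CXCR3 were looked for in the deposited count table, and 3 of the 4 were found among 43427 symbols (CXCL10, CXCL11, and CXCR3). CXCL9 was not analysed here. The members were chosen with earlier results in view, among them that CXCL10 was not higher early in every tumor. Their early differences are therefore described without a test.

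The libraries came from 13 biopsies of 4 naturally occurring tumors in 3 companion dogs, which received intratumoral IMAX, a nanoparticle joining a lithocholic acid-modified polyethyleneimine with the cytotoxic drug paclitaxel and a cyclic dinucleotide that activates the sensor STING. Dog RV had a soft tissue sarcoma, dog CL a cranial and a caudal mammary carcinoma, and dog BM a mammary carcinoma of the left caudal gland. The 4 pretreatment libraries are called before. The 4 early libraries were taken at 2 days (RV) or 1 week (CL and BM) after the second dose, and the 5 late ones at 2 weeks after the third dose (RV, from the injection site and an adjacent site), or at 1 month (CL) or 3 weeks (BM) after the second. No untreated dog was included, so the pretreatment biopsy of the same tumor served as the baseline. Dog, tumor type, dose number, and biopsy time cannot be told apart, the CL tumors share a host, and apart from the late RV sites a tumor had 1 library per time point.

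In mammals CXCL10 and CXCL11 are secreted by macrophages, endothelial cells, epithelial cells, and fibroblasts that sense interferon. CXCL10 transcription follows interferon gamma, type I interferon, and NFκB, while CXCL11 is induced mainly by the interferons and binds the receptor most strongly. CXCR3 is a G protein-coupled receptor best known on activated and memory T cells, NK cells, and plasmacytoid dendritic cells, which it guides toward inflamed tissue, including tumors.

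Per the RefSeq annotation of UU_Cfam_GSD_1.0, CXCL11 (gene ID 119867221) lies on chromosome 32 from 39553718 to 39589852 and CXCL10 (gene ID 478432) from 39590894 to 39592413, with 1041 bases between them. CXCR3 (gene ID 491952) lies on chromosome X from 56078430 to 56080579, and no other annotated gene overlaps it. The annotated span of ART3, a mono-ADP-ribosyltransferase gene, runs from 39448111 to 39628887 and overlaps both ligand genes. Since the counting rule is not given in the sources used here, reads shared between ART3 and the ligands cannot be told apart.

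Total counts ranged from 11622444 to 29931125 per library, and 3 counts corresponded to 0.0833 to 0.262 CPM (counts scaled by library total and TMM factor). The 2-day RV library stood apart. Long noncoding RNA genes took 5.42% of its counts, against 0.579% to 1.74% in the other libraries, and its summed neutrophil markers (12 genes) were at 7500 CPM, against 59.6 CPM in that mass before treatment and at most 2140 CPM in any other library. Epidermis markers (12 genes) summed to 2990 CPM there against 66.1 CPM before, but they were also high in BM before (3490 CPM) and in CL caudal at 1 week (2130 CPM against 254 CPM before). Mammary epithelial markers (12 genes) were detected in every library, the sarcoma included. In BM their sum was 3570 CPM before, 2380 CPM at 1 week, and 213 CPM at 3 weeks. The fibroblast and mesenchymal sum (11 genes) was 2490, 33000, and 113000 CPM in the same BM libraries, and in RV it was 34700 CPM before and 3650 CPM at 2 days. By histology, the paper diagnosed the RV biopsy at 2 days as granulomatous to pyogranulomatous dermatitis, without definitively identified tumor cells. In BM it described only small areas of tumor cells at 1 week and features of a carcinosarcoma at 3 weeks. The part of these marker and tissue shifts in the early differences of the members was not tested.

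The ligand CXCL10 followed a different course in each pair of tumors. In the RV mass it was at 3.27 CPM before, 33.6 CPM at 2 days, and 1.76 and 2.36 CPM at the injection and adjacent sites at 2 weeks. In the cranial CL tumor it was at 4.36 CPM before, 101 CPM at 1 week, and 13.2 CPM at 1 month. Both tumors thus began low and held their highest CXCL10 level early.

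In the caudal CL tumor CXCL10 was at 31.2 CPM before, 13.4 CPM at 1 week, and 47.0 CPM at 1 month. In BM it was at 53.5 CPM before, 31.8 CPM at 1 week, and 5.92 CPM at 3 weeks. These tumors held more CXCL10 before treatment than the other two, and less at 1 week than before. The 2 tumors of dog CL thus lay on opposite sides of their own baselines.

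The early to before ratio of CXCL10 was 10.3 in RV (exact 95% interval 7.68 to 14.1), 23.2 in CL cranial (18.8 to 28.9), 0.595 in BM (0.549 to 0.644), and 0.431 in CL caudal (0.375 to 0.496). These intervals cover counting error only, and each ratio rests on 1 library per time point. Between the 2 late RV sites, the only biopsies of 1 mass at 1 time point, CXCL10 differed by -0.40 log2 (injection minus adjacent). Over all 20118 tested genes the median absolute difference between these sites was 0.475 log2, and 95% of genes differed by at most 1.62 log2. The early minus before differences of CXCL10 were 3.32 and 4.50 log2 in RV and CL cranial, and -1.21 and -0.75 in CL caudal and BM. Those of CL caudal and BM were smaller in size than 1.62 log2, and those of RV and CL cranial were larger.

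**Figure D1:**
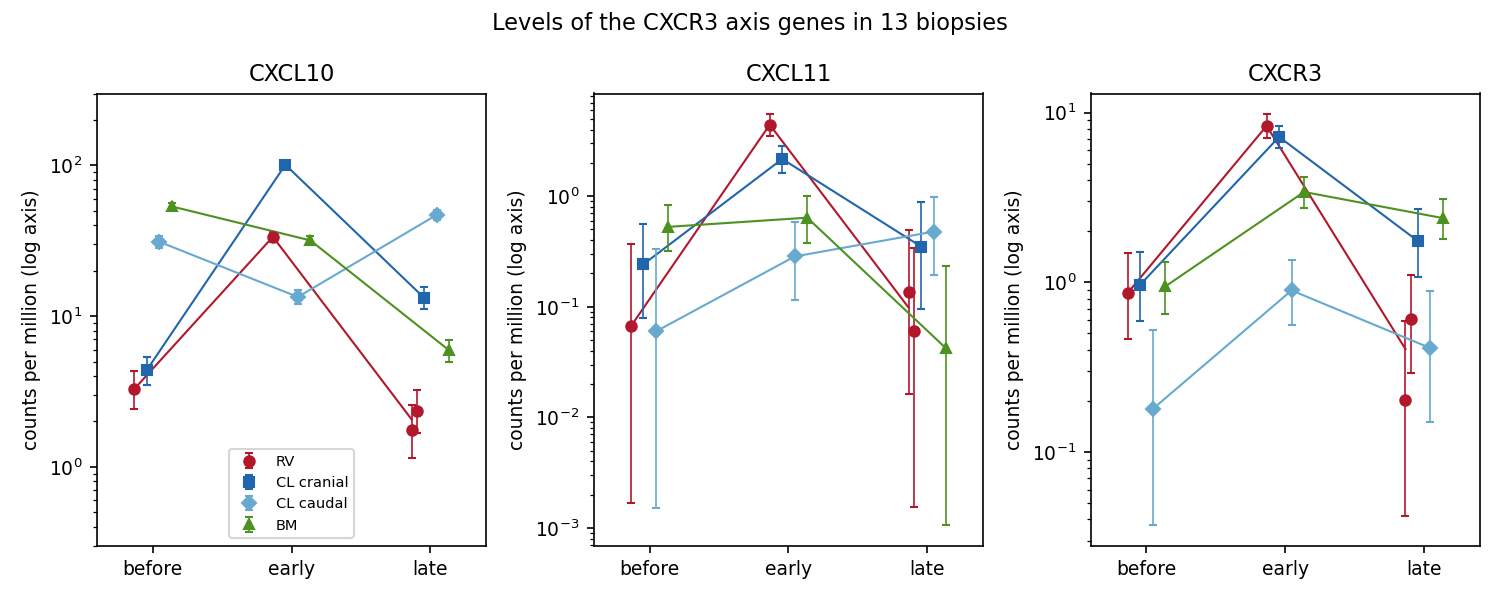
Level of CXCL10, CXCL11, and CXCR3 in each biopsy (CPM, log axis) by time group, with a symbol and color per tumor, exact 95% Poisson intervals for counting error, and lines through the mean of a tumor's libraries at each time. CXCL10 was highest early in RV (33.6 CPM) and CL cranial (101 CPM) and below its pretreatment level early in CL caudal (13.4 CPM) and BM (31.8 CPM).

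CXCL11 was far less counted, with 1 to 79 counts per library. In RV it had 1 count before (0.0666 CPM), 79 at 2 days (4.43 CPM), and 2 and 1 at 2 weeks. In CL cranial it had 5 counts before (0.242 CPM), 54 at 1 week (2.17 CPM), and 4 at 1 month (0.350 CPM). The 2-day RV and 1-week CL cranial libraries held the highest levels, and their intervals met no lower library.

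In CL caudal CXCL11 had 1 count before, 7 at 1 week, and 7 at 1 month, and in BM 19 counts before (0.528 CPM), 18 at 1 week (0.639 CPM), and 1 at 3 weeks (0.0420 CPM). The early to before ratio was 66.5 in RV (exact 95% interval 11.6 to 2660), 8.97 in CL cranial (3.62 to 28.7), 1.21 in BM (0.599 to 2.44), and 4.77 in CL caudal (0.612 to 215). In the last 2 tumors a difference was not detectable at this depth. Of the 13 libraries in order of level, 10 of the 12 steps to the next higher library lay within overlapping counting intervals.

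The receptor gene CXCR3 was higher early than before in each of the 4 tumors. In RV it had 13 counts before (0.866 CPM), 149 at 2 days (8.36 CPM), and 3 and 10 at 2 weeks (0.203 and 0.605 CPM). In CL cranial it was at 0.968 CPM before, 7.20 CPM at 1 week, and 1.75 CPM at 1 month. In CL caudal it had 3 counts before (0.179 CPM), 22 at 1 week (0.896 CPM), and 6 at 1 month (0.409 CPM).

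In BM CXCR3 was at 0.945 CPM before, 3.41 CPM at 1 week, and 2.39 CPM at 3 weeks. The late to before ratio there was 2.53 (exact 95% interval 1.63 to 4.0, counting error only), a difference of 1.26 log2. Between the 2 late RV sites CXCR3 differed by -1.22 log2 (injection minus adjacent, 3 and 10 counts). The early to before ratios were 9.65 in RV (exact 95% interval 5.48 to 18.6), 7.43 in CL cranial (4.67 to 12.5), 3.61 in BM (2.42 to 5.50), and 4.99 in CL caudal (1.5 to 26.1). These intervals too cover counting error only. Across tumors the time groups of CXCR3, like those of the ligands, still overlapped (2.71% of all tested genes were higher early with no overlap), since the early CL caudal library (0.896 CPM) lay below the pretreatment libraries of CL cranial and BM.

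The early value of CXCR3 lay above the pretreatment one in all 4 tumors, as it did for 10.8% of all tested genes, and that of CXCL10 in 2 of 4. The early value of CXCL11 also lay above in all 4, though in BM and CL caudal by no more than counting error could give. This count is what the choice of members rested on. The mean early difference within a tumor was 1.47 ± 2.87 log2 for CXCL10, 2.26 ± 1.97 for CXCL11, and 2.37 ± 0.69 for CXCR3 (SD, n = 4 tumors each). The receptor had the smallest spread between tumors and CXCL10 the largest. In the edgeR model with the tumor as a block, the early log2 fold changes were 1.82 (standard error 1.10) for CXCL10, 2.84 (1.30) for CXCL11, and 2.73 (0.80) for CXCR3, where the median over all tested genes was 0.25.

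These values depended on single libraries. Without the 2-day RV library, CXCL10 was at 0.79 log2, CXCL11 at 1.57, and CXCR3 at 1.99. Without the pretreatment BM library CXCL10 was at 2.91 and CXCL11 at 4.24. CXCL10 was at 1.03 without the pretreatment CL cranial library and at 1.15 without the late CL caudal one.

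Late values were set against the pretreatment ones to see whether the axis remained different. The pretreatment libraries had entered the choice of members, so this contrast too is given without a test of the members. The fitted log2 fold change of CXCL10 was -0.68 (SE 0.98), that of CXCL11 was -0.16 (SE 1.28), and that of CXCR3 was 0.51 (SE 0.74), each smaller than its standard error. In this contrast edgeR called 0.00% of the 20118 tested genes (0 genes, with 805 at an unadjusted p under 0.05), and DESeq2 called 7.

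Within tumors the late values scattered on both sides of the baseline. The late minus before difference of CXCL10 was -0.65 and 1.58 log2 in RV and CL cranial, and 0.59 and -3.16 in CL caudal and BM, and that of CXCL11 was 0.22, 0.40, 1.87, and -2.16 in the same order. The sign of the CXCL10 estimate rested on BM, whose removal turned it to 0.31. For CXCR3 the differences were -1.07, 0.79, 0.87, and 1.26. Counting intervals of the late to before ratio did not exclude an equal level for CXCL11 in RV (0.116 to 75.6) and CL cranial (0.287 to 6.71). For CXCR3 they excluded it in BM only.

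**Figure D2:**
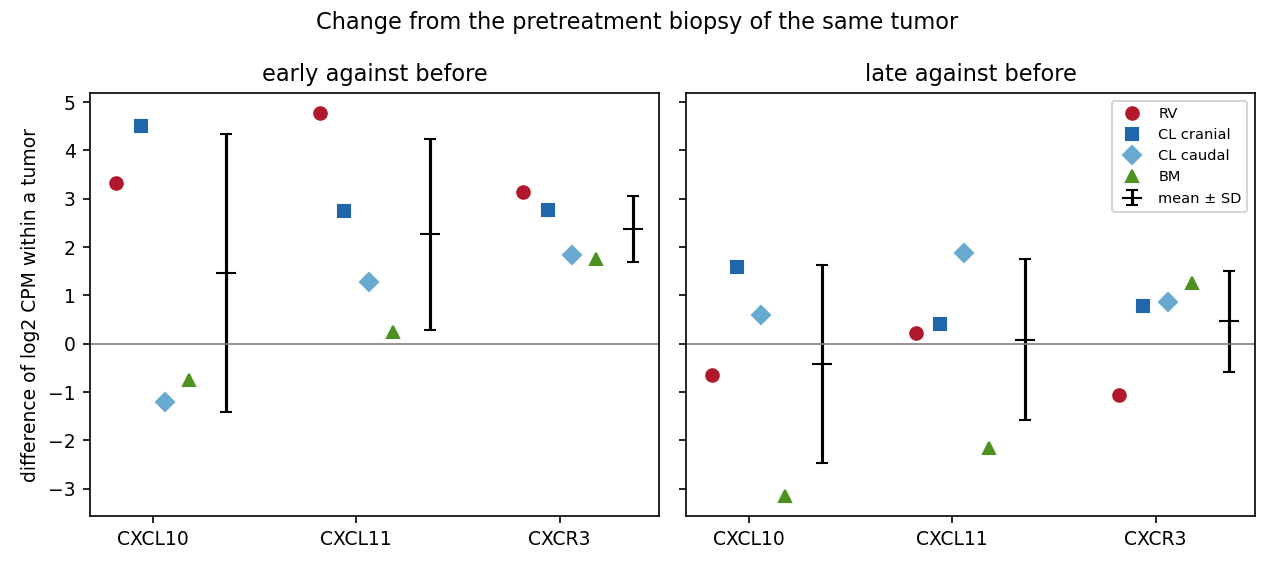
Difference of log2 CPM from the pretreatment biopsy of the same tumor, early (left) and late (right), with a symbol per tumor and the mean ± SD over 4 tumors beside them. Early CXCR3 differences lay between 1.75 and 3.13, while those of CXCL10 ran from -1.21 to 4.50, and late differences of every member lay on both sides of 0. Some late differences of CXCL11 and CXCR3 were within counting error.

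From the early to the late biopsy, all 3 members were lower in RV, CL cranial, and BM, and CXCR3 was lower in all 4 tumors, as were 17.4% of all tested genes. In this contrast 0.00994% of genes were called (2 genes). CXCL10 differed by -3.98 log2 in RV, -2.93 in CL cranial, and -2.41 in BM, against 1.80 in CL caudal. The late to early ratio of CXCR3 was 0.0497 in RV (exact 95% interval 0.0259 to 0.0876), 0.243 in CL cranial (0.145 to 0.386), 0.702 in BM (0.497 to 0.985), and 0.457 in CL caudal (0.151 to 1.16). The early libraries entered the choice of members, so this contrast is given without a test.

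The balance of the ligands differed between libraries. Since transcript lengths were not at hand, the ratio of raw counts was compared between libraries and not read as a ratio of molecules. CXCL11 had 13.2 counts per 100 counts of CXCL10 in RV at 2 days (exact 95% interval 10.3 to 16.7) and 2.15 in CL cranial at 1 week (1.61 to 2.82). It had 2.12 in CL caudal at 1 week (0.846 to 4.42) and 2.01 in BM at 1 week (1.18 to 3.19). The intervals of the 3 mammary libraries at 1 week overlapped, while their CXCL10 levels ran from 13.4 to 101 CPM. In the 2-day RV library the ratio was higher, and its interval did not meet those of the 3 mammary libraries at 1 week. It did meet those of RV before (0.0506 to 11.9) and at 2 weeks (0.885 to 30.7 and 0.0633 to 15.2). That of CL cranial before (1.76 to 13.5) was met as well.

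ART3 was compared with the ligands because its span covers both. Its level was 1.53 CPM in RV before and 39.6 CPM at 2 days, 8.57 and 12.9 CPM in CL cranial, 26.2 and 17.4 CPM in CL caudal, and 7.81 and 3.83 CPM in BM (before and early). Early, ART3 lay on the same side of its baseline as CXCL10 in each tumor. Late, it lay below its baseline in both CL tumors, where CXCL10 lay above, and both genes lay below in RV and BM. The counts were not in a fixed ratio, with 50.8 CXCL10 counts per 100 ART3 counts in CL cranial before, 780 in the same tumor at 1 week, and 84.7 in RV at 2 days. Of the 10 tested genes of the neighborhood list (chosen from general knowledge of the locus), 4 had a fitted early fold change above 0, and none was called. Over all 20118 tested genes, 12123 were above 0. In all 4 tumors 5 of the 10 were lower early, as were 1579 of all tested genes. In RV, where both ligands were higher early, 5 of the 10 were higher, with a median of 0.10 log2. SCARB2, a lysosomal membrane protein gene, was at 1.04 log2 there, NUP54, a nuclear pore subunit gene, at -0.51, and SDAD1, a ribosome biogenesis factor gene, at -1.99.

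Interferon gamma is the strongest inducer of the axis. Its gene IFNG had 0 counts in RV before, 48 at 2 days (2.69 CPM), and 0 at both late sites. It had 30 counts before and 62 at 1 week in CL cranial (1.45 and 2.49 CPM), and 0 and 3 in CL caudal. In BM it had 32 counts before (0.889 CPM), 2 at 1 week (0.0710 CPM), and 14 at 3 weeks (0.588 CPM). Early, IFNG lay on the same side of its baseline as CXCL10 in RV, CL cranial, and BM, and in CL caudal its 3 counts or fewer allowed no comparison. From early to late both genes were lower in RV and CL cranial. In BM, IFNG was then higher (2.02 log2) and CXCL10 lower (-2.41 log2). IFNB1, the gene of interferon beta, was detected at 1.07 CPM in the 2-day RV library and at no more than 0.281 CPM in any other.

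Of the 19 tested genes for interferon gamma production and signaling, none passed the threshold early, where edgeR called 0.00497% of all genes (1 gene, with 2184 at an unadjusted p under 0.05), and 7 were higher in all 4 tumors (10.8% of all genes). DESeq2 called 956 genes in this contrast, so that counts of called genes below hold for edgeR. The median log2 fold change of the list was 1.59, against 0.25 over all genes. IRF1, an interferon-induced transcription factor, was higher early by 3.34, 1.86, 1.86, and 0.99 log2 in RV, CL cranial, CL caudal, and BM (fitted 2.10, standard error 0.47, adjusted p = 0.154 by edgeR). TBX21, the T-bet factor that drives IFNG and CXCR3 transcription, was higher by 3.34, 3.99, 2.71, and 1.01 log2 in the same order.

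In CL caudal and BM, IRF1 was therefore higher early than before, and CXCL10 was lower, with 1 library per time point. Both CXCL10 differences and the IRF1 difference in BM were below 1.62 log2 in size. Between the late RV sites 95% of genes differed by at most that. Of the 22 tested genes of the interferon gamma response list, 15 were higher early in all 4 tumors and none was called, with a median log2 fold change of 2.08. NLRC5, an activator of MHC class I genes, was higher by 4.70, 3.34, 2.67, and 1.36 log2 in RV, CL cranial, CL caudal, and BM. IDO1, the enzyme that degrades tryptophan, was at 4.35, 4.94, -0.60, and 0.17 in the same order, and GBP5, an interferon-induced GTPase, at 5.40, 4.17, 0.42, and -0.01. Both were far above their baselines in RV and CL cranial and within 1 log2 unit of them in the other tumors, where CXCL10 was at -1.21 and -0.75.

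For type I interferon, 9 of 13 tested induction and signaling genes were higher early in all 4 tumors, and none was called. IRF7, which amplifies interferon transcription, was higher by 5.37 and 2.43 log2 in RV and CL cranial, and 3.20 and 2.29 in CL caudal and BM. SOCS3, a feedback inhibitor of cytokine signaling, was higher by 3.92, 2.31, 4.26, and 1.07. CGAS, the DNA sensor upstream of STING, was higher by 4.57, 3.59, 0.70, and 0.48. Late, the list median was 0.22 log2 against -0.05 over all genes, with none called.

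**Figure D3:**
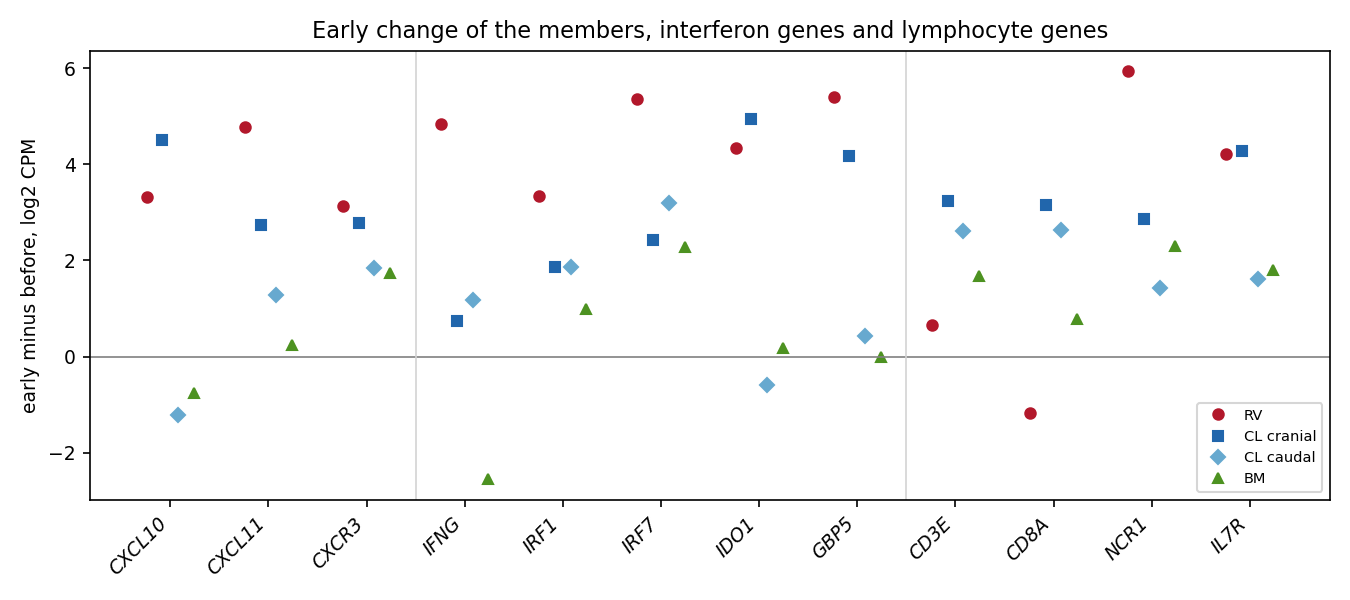
Early minus before difference of log2 CPM within each tumor for the members (left block), interferon genes (middle), and lymphocyte genes (right), with a symbol per tumor. In CL caudal and BM, CXCL10 lay below 0 (-1.21 and -0.75) while IRF1 lay at 1.86 and 0.99, with 1 library per time point.

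The bearing of T and NK cells was described from their marker genes, because in bulk tissue more cells of a type and more RNA per cell cannot be told apart. T cell markers (17 genes) were detected in every library. Their summed level ran from 48.2 to 87.9 CPM before, 106 to 769 CPM early, and 80.8 to 226 CPM late. The highest sum, in RV at 2 days, held 169 CPM of IL7R, 23.7 CPM of CD2, and 8.19 CPM of CD3E, with most of it in markers not named here. The median early difference of the markers in that tumor was 0.07 log2, with 10 of 17 higher. Of the 17, 9 were higher early in all 4 tumors, and none was called. CD3E, a subunit of the T cell receptor complex, was higher early by 0.65 and 3.23 log2 in RV and CL cranial, and 2.62 and 1.67 in CL caudal and BM. CD8A, the coreceptor of cytotoxic T cells, was at -1.17, 3.16, 2.63, and 0.79.

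In RV the early CXCR3 difference of 3.13 log2 therefore stood beside a CD3E difference of 0.65 and a CD8A difference of -1.17, while IL7R was at 4.21 and CD28, a costimulatory receptor of T cells, at 3.10. The number of CXCR3 counts per 100 CD3E counts was 102 in that library (exact 95% interval 80.7 to 129) and 3.06 to 27.3 in the 12 others. At 1 week it was 16.4 in CL cranial, 16.6 in BM, and 19.6 in CL caudal, against 21.1, 14.8, and 27.3 before treatment. In each of the 3 mammary tumors the counting intervals of this ratio before and at 1 week overlapped.

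**Figure D4:**
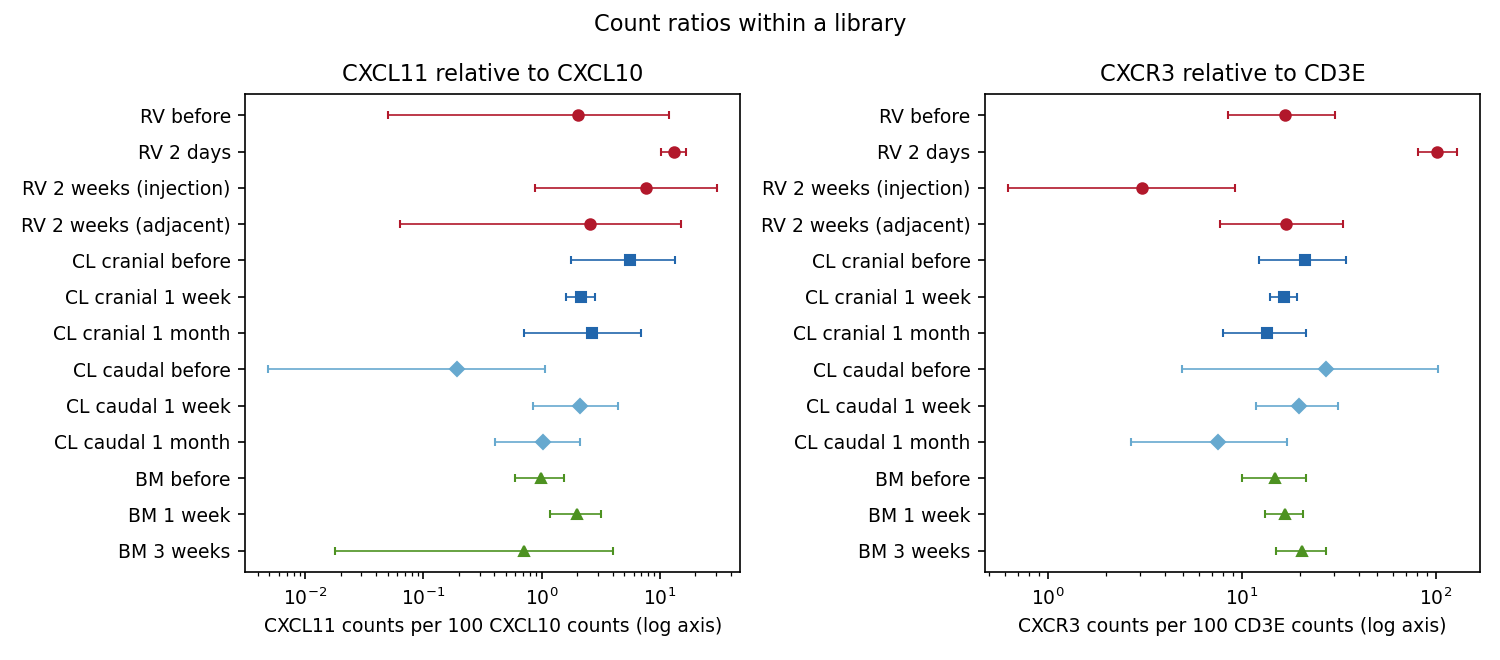
Counts of CXCL11 per 100 counts of CXCL10 (left) and of CXCR3 per 100 counts of CD3E (right) in each library, on log axes, with exact 95% intervals for counting error. The 2-day RV library stood highest in both panels, at 13.2 and 102. Its interval met those of the other RV libraries and of CL cranial before on the left, and that of CL caudal before on the right.

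NK cell markers (14 genes) summed to 14.2 to 31.5 CPM before, 21.8 to 151 CPM early, and 37.1 to 139 CPM late, and 5 of the 14 were higher early in all 4 tumors. In RV and in CL caudal 8 of the 14 were higher, with medians of 0.31 and 0.38 log2. NCR1, the NKp46 receptor, was higher early by 5.94 and 2.86 log2 in RV and CL cranial, and 1.42 and 2.31 in CL caudal and BM (fitted 3.85, standard error 0.98, adjusted p = 0.192 by edgeR). It reached 14.1 CPM in RV at 2 days and at most 1.49 CPM in any other library. PRF1, which encodes perforin, was higher by 0.28, 4.02, 2.4, and 2.12, and GZMB, which encodes granzyme B, by 1.51, 3.99, 1.90, and 2.59. These genes were named for their direction in all 4 tumors, and NKG7, a cytotoxic granule gene, was at -1.5 log2 in RV.

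Macrophage markers (13 genes), another source of CXCL10, summed to 317 to 919 CPM before, 1340 to 3650 CPM early, and 450 to 1510 CPM late. Of the 13 genes, 5 were higher early in all 4 tumors, and 8 were higher in RV and in CL caudal. In BM the sum was 3650 CPM at 1 week against 317 CPM before, while the CXCL10 difference was -0.75 log2. Endothelial markers (12 genes) were higher early in all 4 tumors for 10 genes, and neutrophil markers (12 genes) for 2, where 10.8% of all tested genes were. None of these genes was called early or late. The part of any of these cell types in the levels of the members was not tested.

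The genes whose course was most like that of a member were sought over the 13 libraries after the mean of each tumor was removed. Likeness was measured by Pearson's r of log2 CPM, as a description, since the libraries of a tumor share a host and the 2-day RV library is extreme in many genes. For CXCR3 the closest were BIN2 (r = 0.974), SCIMP (0.971), IL7R (0.970), C5AR1 (0.964), and EVI2B (0.964). IL7R is the interleukin 7 receptor of T cells, and C5AR1 the complement C5a receptor of neutrophils and macrophages. IL7R was at 169 CPM in RV at 2 days against 9.0 before. It is part of the T cell marker sum of 769 CPM in that library. The median early difference of those markers in RV was 0.07 log2, with 10 of 17 higher.

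For CXCL10 the closest were the noncoding gene LOC119864857 (r = 0.963), IFGGB2 (0.944), SLAMF6 (0.942), the pseudogene LOC100855645 (0.940), and PNLIPRP3 (0.936). SLAMF6 is a receptor of the SLAM family on T, NK, and B cells. For CXCL11 they were the noncoding gene LOC119872992 (0.991), KLK5 (0.983), XKRX (0.980), TMEM150B (0.980), and LOC100684769 (0.974). KLK5 encodes a kallikrein protease of the epidermis. It was at 12.9 CPM in RV at 2 days, with 0 counts there before, and at 0.611 CPM in BM before, the library with the highest epidermis sum. Among the members, CXCL10 and CXCL11 had r = 0.874, CXCL11 and CXCR3 0.781, and CXCL10 and CXCR3 0.651.

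Of the other CXC chemokines 7 were tested, and none was higher early in all 4 tumors or called. CXCL8, the neutrophil attractant, was at 1900 CPM in RV at 2 days against 18.4 before, and its early difference was 6.68 and 3.10 log2 in RV and CL cranial, and -2.47 and -1.22 in CL caudal and BM. It thus had the same signs as CXCL10. CXCL12, a stromal chemokine, was at -2.81, 0.12, -0.30, and 2.66, and CXCL16, the ligand of CXCR6, at 0.33, 0.46, -0.88, and 0.66.

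Of the other CXC receptors 4 were tested, of which 1 (CXCR1, a receptor of CXCL8) was higher early in all 4 tumors. CXCR6, like CXCR3 a receptor of effector T cells, was at -1.55 log2 early in RV, 2.41 in CL cranial, 2.0 in BM, and -0.03 in CL caudal, and higher late than before in all 4 (0.58, 2.16, 1.37, and 1.48 in the same order). That late direction held for 7.13% of all genes, and its fitted value was 1.37 (standard error 0.64, adjusted p = 0.973 by edgeR). CXCR3 and CXCR6 thus stood at opposite sides of their baselines in RV at 2 days.

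Genes that process the ligands or carry the receptor's signal were also listed. Of 13 tested, 6 were higher early in all 4 tumors, and none was called. PIK3CG, the phosphoinositide 3-kinase gamma subunit downstream of chemokine receptors, was higher by 3.16 and 2.41 log2 in RV and CL cranial, and 0.57 and 1.93 in CL caudal and BM. ACKR1, which binds chemokines on venules without signaling, was higher by 2.93, 3.96, 0.18, and 3.57. DPP4, a peptidase that trims and inactivates CXCL10, was at 460 CPM in CL cranial before and 113 CPM at 1 week (-2.03 log2), and at 8.03 and 68.7 CPM in BM (3.08 log2). ACKR3, a scavenger of CXCL11 and CXCL12, was at -2.77 log2 early in RV and 3.72 in BM.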

How the data were processed

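RNA from 13 biopsies was sequenced as strand-specific libraries. Alignment to CanFam4.0 was done by the authors in Strand NGS, and the deposited values are raw counts, 1 row per gene symbol. The counting rule, strand setting, and annotation release are not given in the sources used here. Of the symbols, 98.04% matched the RefSeq table of UU_Cfam_GSD_1.0, which gave positions. The members and gene lists were chosen with earlier results of these data known.

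Genes were filtered with filterByExpr (minimum count 10), leaving 20118. TMM normalization, glmQLFit with robust estimation, and glmQLFTest (edgeR 4.0.16, R 4.3.3) were run on all libraries with tumor and time group as factors, with Benjamini-Hochberg adjustment at 0.05. The pairing comes from the tumor: deviations from the group means correlated within tumors with a mean r of 0.229 (early and before) and 0.587 (late and before), against -0.071 and -0.199 between tumors. Differences within a tumor used log2 CPM with a prior count of 2, averaging the late RV sites. Ratio intervals are exact (Clopper-Pearson), and those of levels exact Poisson. Both leave out all but counting error, as PCR copies were not told apart. A planned test of the members late against before is not given, since the pretreatment libraries entered their choice. The p-values and standard errors measure the spread between these libraries after tumor and time group are fitted. The CL tumors counted as separate blocks and the late RV sites as separate libraries, so the spread between dogs is not measured. Levels were not compared between genes, since transcript lengths were not at hand. This replaced a planned comparison of ligands per length.

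Named were the members, 14 genes fixed by name (PF4 was not analysed here), up to 3 per list with the largest early change of 1 direction in all tumors, the 5 most like each member, and genes called in a list. Of these, those that bear on the members are printed, except 1 that is not reported here. ART3, NUP54, SCARB2, CXCL8, CXCL12, and NKG7 were named after their values were seen. No library was a copy of another (lowest chi-square per degree of freedom 44.5). The edgeR model was run on simulated counts with planted early changes, and the outcome is not reported here. DESeq2 1.42.0 was an alternative. Python 3.11.15 with scipy 1.17.1 and matplotlib 3.10.9 did the rest.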

Additional observations from a re-analysis of the deposited data

Results flagged for a closer look

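One of the 9 groups of libraries examined (3 members at 3 time groups) held a library far from the rest, where chance flags about 1 in 20. CXCR3 was at -1.85 log2 CPM in the caudal CL tumor before treatment, against -0.05 to 0.09 in the other pretreatment libraries. That level rests on 3 counts.

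In 4 of 18 comparisons both CL tumors lay on 1 side of their baselines and another dog on the other. These differences were not tested, and no chance rate is given for this count. All were late against before. CXCL10 was at -0.65 log2 in RV and -3.16 in BM, against 1.58 and 0.59 in CL cranial and CL caudal. CXCL11 was at -2.16 in BM, against 0.40 and 1.87, and CXCR3 was at -1.07 in RV, against 0.79 and 0.87. For CXCR3 the late to before intervals included 1 in RV (0.205 to 1.12), CL cranial (0.922 to 3.54), and CL caudal (0.487 to 14.1). That of CXCL11 in CL cranial did too (0.287 to 6.71). The other intervals in these comparisons did not, and all cover counting error only.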

How the results depend on the processing

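Left-out single libraries were an alternative chosen after seeing the data. The late minus before estimate kept its sign for CXCR3 in all 24 alternatives (0.02 to 1.15). For CXCL10 it turned in 2 of 24, both without BM libraries (0.31 without the tumor, 0.32 without its pretreatment library), with a range of -1.87 to 0.32. For CXCL11 it turned in 8 of 22, at 0.05 without RV, 0.05 with the late RV sites summed, and otherwise at 0.02 to 1.07 with 1 library left out. The full range with 1 library left out was -1.38 to 1.07. With 1 library left out the early estimates ran from 0.79 to 2.91 (CXCL10), 1.57 to 4.24 (CXCL11), and 1.99 to 3.02 (CXCR3). Without the tumor as replicate block, early CXCL10 was at 0.96. CXCL11 could not be fitted without BM in any contrast, or with only the libraries compared in either late contrast, because it did not pass the filter. A prior count of 0.5 or scaling by library totals moved no mean within-tumor difference by more than its SD between tumors.

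The number of genes called was 1 early, 0 late, and 2 between early and late. With DESeq2 in place of edgeR it was 956, 7, and 4809. With no filter on low counts it was 17 early and 1081 between early and late. It was 0 in the early and in the late to early contrast without the replicate block, with the dog as block, with the late RV sites summed, and with only the libraries compared, and 0 early with DESeq2's size factors. With 1 library or tumor left out it ran from 0 to 12 early and from 0 to 2000 between early and late (2000 without the early BM library, 809 without the pretreatment RV library, and 28 without the late BM library). The cause was not tested. The counts of CXCL11 and IFNG limit what can be seen of them in most libraries.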
